A study of Mus musculus with 27 samples.

Results

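The regions described here are stretches of chromatin that appeared in the ATAC peak list of TGF-β-treated NMuMG cells at 24 h, and in the lists of neither untreated cells nor 8 h. Accessibility was measured by ATAC-seq, in which the Tn5 transposase cuts and tags open DNA. The peaks of the 3 deposited lists (9782 peaks at 0 h, 10340 at 8 h and 33811 at 24 h, on mm9) were merged where they touched or overlapped, which gave 34453 regions. Of these, 20880 (60.6%) held a 24 h peak alone and are called 24 h only regions. They were chosen by the presence and absence of peaks, and so by the same ATAC signal as the scores given below. For comparison, 6413 regions had a peak at all times and 3586 were gained by 8 h and kept. Each time point had 1 ATAC library, so no value of a region has an error between replicates.

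NMuMG is an established epithelial line from mouse mammary gland, grown here with serum and insulin. All groups were NMuMG cells, either untreated (0 h) or given TGF-β at 1 to 5 ng/ml for 8 or 24 h to induce an epithelial-to-mesenchymal transition (EMT). Parental cells gave 1 ATAC and 1 lamin B1 ChIP library per time point and 2 RNA-seq libraries per time point. Cells infected with an irrelevant shRNA (control) or an shRNA against lamin B1 (KD) gave 2 RNA-seq libraries per time point each and no ATAC library. Lmnb1, the gene targeted in KD cells, stood at 9.01 and 9.27 FPKM in untreated KD cells against 29.2 and 36.5 in control cells, and at 4.37 and 7.52 against 18.4 and 17.9 at 24 h. FPKM counts sequenced fragments relative to transcript length and to the mapped total of a library. The markers of epithelium were present in part. Krt8 (2031 and 2024 FPKM), Krt18 (1776 and 1720) and Cdh1 (113 and 119), which mark epithelium, were high in untreated cells, whereas Epcam (0.383 and 0.319), Cldn3 (0.0562 and 0) and Cldn7 (0 and 0.0379) were near 0. The blood markers Ptprc and Cd3e were at or below 0.0235 FPKM in all 6 parental libraries and Cd68 was between 1.396 and 1.93. Of the fibroblast markers Dcn was highest, at up to 1.52 FPKM, and of the endothelial ones Cdh5, at up to 0.834.

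TGF-β binds a pair of receptor kinases at the cell surface, which phosphorylate SMAD proteins that enter the nucleus and act on genes together with other DNA-binding factors. One such family is AP-1, pairs of FOS and JUN proteins that bind a short palindromic word, often in enhancers away from gene starts. In EMT, epithelial cells lose cadherin junctions and keratins and take on actin stress fibres, new integrins and a fibrous matrix.

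The word TGANTCA, the AP-1 site, stood farthest above the genome of 13 words searched in 24 h only regions away from promoters, and 10 examples show it in its setting. Each line gives 121 bases of mm9, plus strand, with every TGANTCA in capitals. The first pair are the highest scoring regions with the word in an intron and outside genes, and the others lie in introns of genes described below.
Cyp2j13 intron, chr4:95698067-95698187: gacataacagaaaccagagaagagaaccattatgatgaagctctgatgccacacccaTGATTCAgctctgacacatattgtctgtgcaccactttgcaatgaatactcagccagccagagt
outside genes, nearest start Defb43, chr14:63639880-63640000: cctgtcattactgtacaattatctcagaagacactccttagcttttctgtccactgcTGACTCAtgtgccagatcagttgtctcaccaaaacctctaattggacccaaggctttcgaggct
Itga5, chr15:103189215-103189335: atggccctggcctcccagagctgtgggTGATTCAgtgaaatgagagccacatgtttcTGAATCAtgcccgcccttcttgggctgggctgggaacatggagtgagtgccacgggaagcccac
Ltbp1, chr17:75598831-75598951: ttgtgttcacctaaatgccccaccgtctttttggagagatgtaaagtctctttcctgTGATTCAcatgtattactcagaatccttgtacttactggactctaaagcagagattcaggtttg
Itgb6, chr2:60551737-60551857: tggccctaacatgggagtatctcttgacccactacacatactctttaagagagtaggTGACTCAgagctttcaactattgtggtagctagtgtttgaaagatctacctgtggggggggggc
Adam12, chr7:141199934-141200054: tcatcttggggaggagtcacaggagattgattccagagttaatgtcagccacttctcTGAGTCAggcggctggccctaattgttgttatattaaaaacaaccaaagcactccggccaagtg
Col5a1, chr2:27792167-27792287: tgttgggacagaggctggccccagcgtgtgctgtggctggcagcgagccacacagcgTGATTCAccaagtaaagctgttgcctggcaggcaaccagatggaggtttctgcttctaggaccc
Zeb2, chr2:44904990-44905110: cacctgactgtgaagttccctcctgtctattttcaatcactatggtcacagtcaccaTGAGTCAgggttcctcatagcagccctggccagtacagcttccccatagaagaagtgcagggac
Actn4, chr7:29716149-29716269: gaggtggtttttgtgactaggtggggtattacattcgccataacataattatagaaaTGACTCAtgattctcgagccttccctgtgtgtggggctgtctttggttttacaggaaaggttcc
Ocln, chr13:101306205-101306325: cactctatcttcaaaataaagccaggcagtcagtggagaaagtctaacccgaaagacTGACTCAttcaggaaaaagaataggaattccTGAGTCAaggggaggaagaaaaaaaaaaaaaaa
The middle base of the word varied. It read TGACTCA or its reverse TGAGTCA in Defb43, Itgb6, Adam12, Zeb2 and Actn4, and TGATTCA in the Cyp2j13 intron, Ltbp1 and Col5a1. Itga5 carried 2 copies within the window, TGATTCA and TGAATCA, and Ocln carried TGACTCA and TGAGTCA.

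The 24 h only regions were the weaker part of the 24 h list. Since the rule used these scores, they are given as a description. Scores are those deposited with the MACS peaks, a scale on which higher means stronger evidence, and the lowest in the lists was 50. The median 24 h score was 104 in the 24 h only regions (quartiles 70.7 and 164), 250 in regions gained by 8 h and kept and 399 in regions present at all times. The regions were also narrower, with a median width of 879 bp against 1260 and 1631 bp. In all they covered 20.02 Mb.

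**Figure D1:**
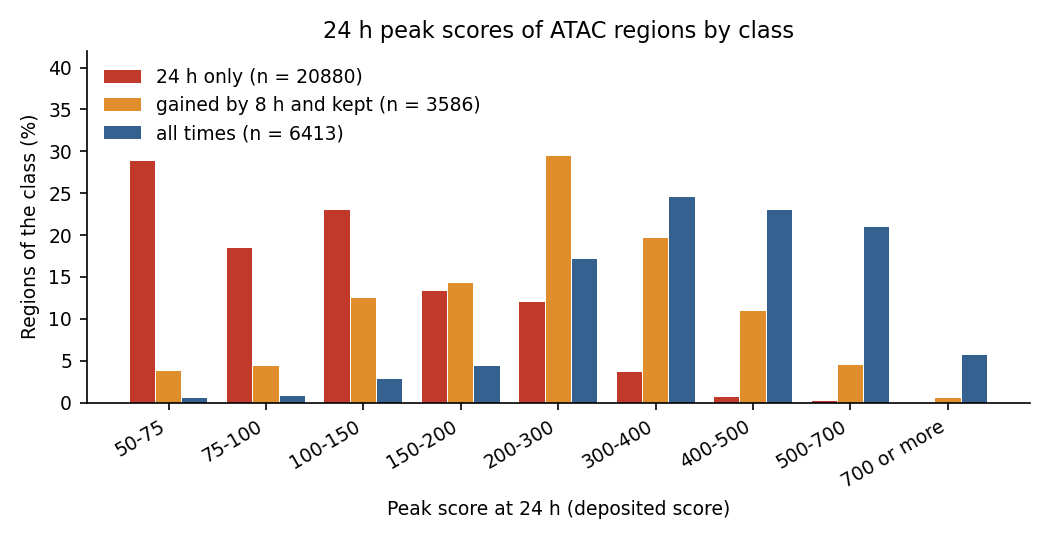
Share of regions (%, y axis) by deposited 24 h peak score (x axis, bins of unequal width) in 24 h only regions, regions gained by 8 h and kept, and regions present at all times. Of the 24 h only regions 28.9% lie between 50 and 75, and none reaches 700.

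The 24 h list also scored higher in chromatin that was accessible throughout. In the 6413 regions with a peak at all times the median scores at 0, 8 and 24 h were 110, 82.9 and 399, and in 6331 of them (98.7%) the 24 h score was above both others. The median ratio of the 24 h score to the untreated score was 3.44 in these regions, and that to the 8 h score was 4.57. This scaling was added after the scores were seen. Divided by these ratios, the 24 h scores of 16105 members (77.1%) and 18483 members (88.5%) would fall under 50, the lowest score listed. Only 2397 (11.5%) would reach 50 by both. A region absent from the earlier lists may therefore have been accessible below their limit, and opening during treatment cannot be told apart from a 24 h library in which peaks were easier to call. The lists give no reads, so depth is unknown.

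With a higher minimum score the class shrank faster than the rest of the list. Of regions with a 24 h score of at least 100, 47.4% were 24 h only, which fell to 25.6% at 200, 11.95% at 300 and 1.46% at 500, where 29 regions remained. With lists cut to equal length, 1706 regions were left. At the border of the rule, 15 members had a 0 h or 8 h peak within 100 bp and 239 within 1000 bp, and 6 peaks of the 24 h list overlapped an earlier peak by 1 to 100 bp. Just outside it, 2132 regions with a 24 h peak had earlier scores that were all under 60, and their median 24 h score was 202. Few earlier regions were missing at 24 h. Of 13573 regions with a peak in untreated cells or at 8 h, 12919 (95.2%) also held a 24 h peak.

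Most 24 h only regions lay away from gene starts. Gene positions came from GENCODE M1, and a promoter was taken as 500 bp on each side of a gene's start. Only 2857 regions (13.7%, 95% Wilson interval 13.2 to 14.2, which covers counting error alone) touched a promoter, while 8092 (38.8%) had their middle in an intron, 634 (3.04%) in an exon and 9297 (44.5%) outside genes. Among regions present at all times 66.6% (65.4 to 67.7) touched a promoter, and among those gained by 8 h and kept 19.8% (18.6 to 21.2). The median distance to the nearest gene start was 20952 bp in the 24 h only regions, 19099 bp in those gained by 8 h and 262 bp in those present at all times. The intervals of the promoter shares do not overlap, and the 24 h only regions resembled the 8 h gains in distance more than the constant regions.

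Base composition followed position. The regions had a mean GC content of 47.0% ± 7.08 (SD over regions), between the 41.8% of the genome and the 54.2% ± 7.08 of regions present at all times. Regions gained by 8 h and kept had nearly the same, 47.7% ± 6.94. At promoters the GC content of 24 h only regions was 56.8% ± 7.49, close to the 57.3% ± 5.10 of constant promoters, and in introns 45.8% ± 5.51. The regions were found on every chromosome but Y, from 3.61 per Mb on X to 10.8 per Mb on 19, and 1 lay on the mitochondrial genome. Neighbouring regions were a median of 48.2 kb apart, and when members at most 10 kb apart were joined, 14943 of 17604 groups were single regions and the largest held 8.

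Stronger members sat at promoters more often. The promoter share rose from 7.30% of members with scores of 50 to 75 to 26.2% of those at 300 or more. The highest score of all, 603, belonged to a region at the promoter of Cdk16, a kinase of the cyclin-dependent family (chrX:20264319-20266325). Cdk16 RNA stood at 41.2 ± 0.934 FPKM (SD, n = 2) in untreated cells and 46.8 ± 0.598 at 24 h (log2 change 0.18 ± 0.04 SE, limma adjusted p = 0.00396). The next, 593, lay outside genes 2718 bp from the start of Trpm6, a magnesium channel whose RNA was low, at 1.08 ± 0.0616 FPKM before and 1.73 ± 0.0172 after treatment. The highest in an intron, 563, lay in Phf17, and the highest in an exon, 532, in Grk6, a kinase of G protein-coupled receptors. Of the 10 highest, 5 held the AP-1 word in their middle 300 bp. One of those was 589800 bp from the nearest start, that of Plod2, an enzyme that modifies collagen lysines, whose RNA rose from 10.2 ± 0.364 to 72.4 ± 2.99 FPKM (log2 change 2.72 ± 0.11 SE, limma adjusted p = 1.76e-06).

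The AP-1 word was common in the 24 h only regions away from promoters. Words were searched on both strands in the middle 300 bp and set beside all 8527783 windows of 300 bp in the genome without unknown bases. TGANTCA was found in 10115 of 18023 regions away from promoters (56.1%, interval 55.4 to 56.9) against 8.84% of genome windows. In regions gained by 8 h and kept the share was 59.1% (57.3 to 60.9) and in those present at all times 46.2% (44.1 to 48.3). At promoters it was 10.5% (9.46 to 11.7) of 24 h only regions and 9.7% (7.74 to 12.1) of those gained by 8 h and kept, against 3.91% (3.37 to 4.53) of constant ones. The share away from promoters changed little with score, from 55.5% at 50 to 75 to 52.0% at 300 or more. It was also 52.0% in the members that would reach 50 after division by both ratios. That division is by fixed values, so it amounts to another minimum score and is not a separate check. Away from promoters, members with and without the word had median scores of 99.5 and 100.

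**Figure D2:**
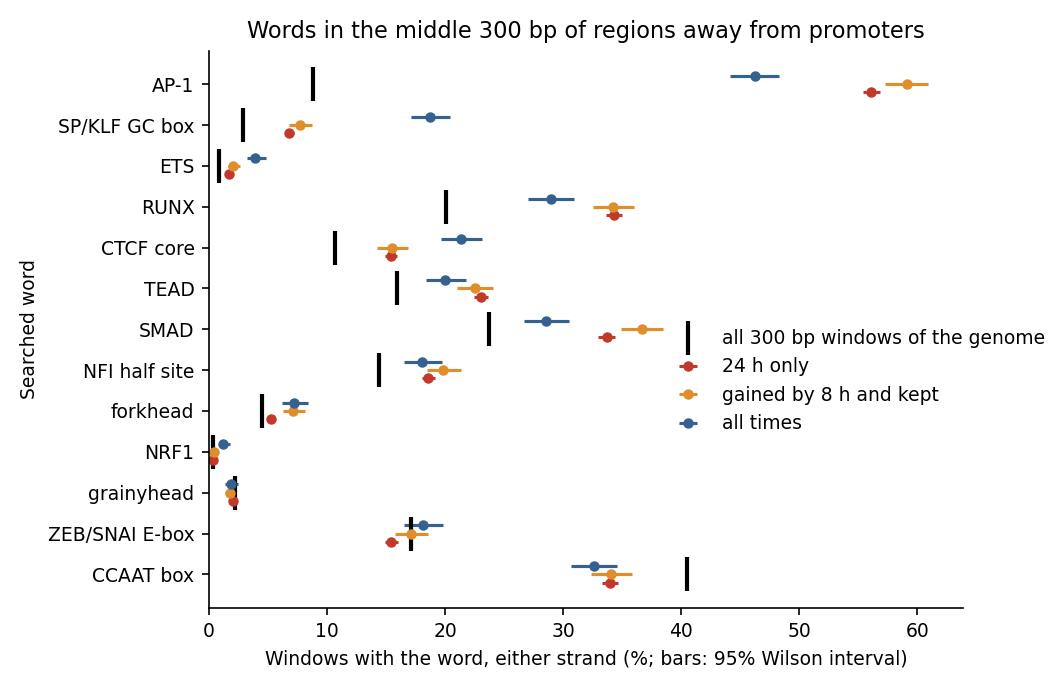
Share of windows with each of 13 searched words (%, x axis) in the middle 300 bp of regions away from promoters, for 3 classes of region (points, with 95% Wilson intervals) and for all 300 bp windows of the genome (black marks). AP-1 stands farthest from its genome mark, at 56.1% against 8.84% in 24 h only regions.

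Other words away from promoters stood closer to the genome. The next by ratio to the genome were the GC box, in 6.80% of regions against 2.86% of genome windows, and the ETS word, in 1.65% against 0.85%. RUNX (TGTGGT) was in 34.3% of 24 h only regions away from promoters against 20.1% of genome windows, SMAD (CAGACA) in 33.7% against 23.7%, TEAD (GGAATG) in 23.0% against 15.9% and the NFI word (TTGGCA) in 18.6% against 14.4%. The ZEB and SNAI E-box (CACCTG), bound by the repressors of epithelial genes, was in 15.4% against 17.2%, the grainyhead word (AACNGGTT) of epithelial activators in 2.03% against 2.17%, and the CCAAT box in 33.9% against 40.5%. A word that is absent from 300 bp says nothing of a factor. The constant regions away from promoters had more of the GC box (GGGCGG), 18.7% (17.1 to 20.4) against 6.80% (6.44 to 7.17), and of the CTCF core (AGGNGGC), 21.3% (19.7 to 23.1) against 15.4% (14.9 to 15.95), and their mean GC was higher. Regions gained by 8 h and kept were near the 24 h only ones, with the GC box in 7.69% (6.77 to 8.72) and the CTCF core in 15.5% (14.2 to 16.9). At promoters 56.5% (54.7 to 58.3) of the 24 h only regions held the GC box, 36.6% the CTCF core and 13.5% the ETS word (CCGGAAG), against 72.7% (71.3 to 74.0), 44.9% and 16.3% of constant promoters. For promoter regions gained by 8 h and kept the shares were 60.5% (56.8 to 64.0), 39.0% and 16.2%. Of genome windows 2.86% held the GC box, 10.6% the CTCF core and 0.85% the ETS word. Forkhead (TGTTTAC) and NRF1 (GCATGCGC) words were searched too and are in the plot of word shares. The SMAD word showed nearly the same share beside AP-1 and without it, since 34.1% of the regions with AP-1 and 33.2% of those without held CAGACA.

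The AP-1 word gathered at the middle of the regions. On average 14.2% of 24 h only regions away from promoters held it within a given 50 bp of the central 100 bp, against 1.55% in the bins farthest out, and for regions present at all times the values were 11.3% and 1.401%. RUNX fell from 7.59% in the middle to 3.90%, SMAD from 6.999% to 5.04% and TEAD from 4.53% to 2.82%. The form of the word, compared after the shares were seen, differed by place. TGACTCA, with its reverse, made up 75.4% of 13028 copies in the middle windows and TGAATCA the other 24.6%, whereas in flanking windows centred 850 bp away the C form was 55.9% of 3391 copies and in the genome 51.6%. The C form was 78.2% in regions gained by 8 h and 82.4% in those present at all times. Copies occurred at 2.41 per kb in the middle and 0.314 per kb in the flanks.

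**Figure D3:**
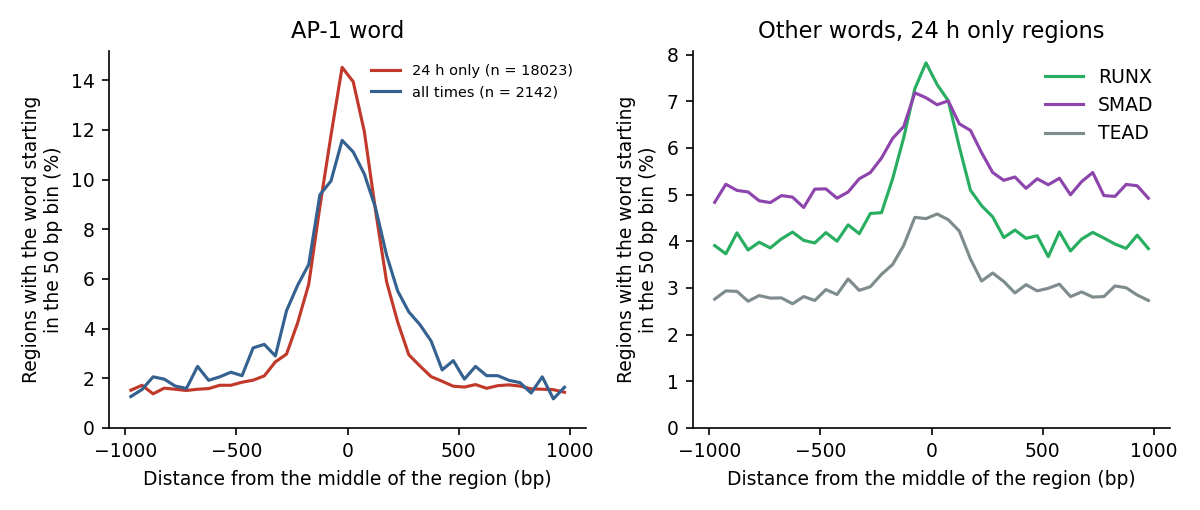
Left, share of regions away from promoters with the AP-1 word in each 50 bp bin (%, y axis) by distance from the middle of the region (bp, x axis), for 24 h only regions and regions present at all times; right, the RUNX, SMAD and TEAD words in 24 h only regions. The AP-1 share is 14.2% on average in the central 100 bp and 1.55% at the outer edge.

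Few of the regions met lamin B1. Lamin B1 ChIP on the euchromatin fraction gave 4645, 10484 and 7083 peaks at 0, 8 and 24 h, each list from 1 library of 2 mixed ChIPs. A peak overlapped 3.396% of the 24 h only regions at 0 h, 6.36% at 8 h and 4.85% at 24 h, an order that follows the length of the lists, and 19184 regions met none. Most that did were at promoters: 29.3% (27.7 to 31.0) of the 24 h only promoters overlapped a 24 h lamin B1 peak, against 0.965% (0.833 to 1.12) of regions away from promoters. Both shares were below those of regions present at all times, 49.2% (47.7 to 50.7) and 8.64% (7.52 to 9.90). In regions gained by 8 h and kept they were 35.9% (32.4 to 39.5) and 1.29% (0.935 to 1.77), the second near that of the 24 h only regions. Among 24 h only promoters the lamin B1 share rose with ATAC score, from 21.4% at 50 to 75 to 35.4% at 300 or more.

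Genes that held a 24 h only region were called higher at 24 h more often than genes without one. RNA was measured in other libraries than accessibility and did not enter the choice of regions. Differences came from limma on log2(FPKM + 1) with a Benjamini-Hochberg adjusted p under 0.05, a scale that understates changes of low genes. Of all 11309 genes tested in parental cells, 33.4% were called higher and 37.1% lower at 24 h. Among 2321 tested genes with a member at the promoter (of 2786), 864 were called higher (37.2%, 35.3 to 39.2) and 793 lower (34.2%). Among 2553 tested genes with members only in the body or the 2500 bp upstream (of 4156), 1048 were called higher (41.1%, 39.2 to 43.0) and 845 lower (33.1%). Among 6160 tested genes without a member the shares were 29.0% (27.9 to 30.2) and 40.2%. The median log2 change was 0.01, 0.05 and -0.05 in the 3 classes and -0.02 over all genes, with calls in both directions in each class.

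Calls of at least a 2-fold change were counted as well. At least 2-fold rises were called in 5.28% of all tested genes, in 7.67% of genes with a promoter member, in 7.33% of those with a body member and in 3.57% of those without. At least 2-fold falls, 6.51% over all genes, were 6.46%, 7.13% and 6.36%, so that the classes, which differed in calls of a fall without a minimum fold, were within 1 percentage point of each other. The share called higher grew with the number of members from promoter to 3′ end, from 34.7% with 1 to 44.2% with 2, 47.6% with 3 and 55.3% with 4 to 6, and was 53.3% (48 of 90) with 7 or more. In control shRNA cells, where 25.5% of all tested genes were called higher and 45.1% lower, the last 2 values were 47.0% and 46.5%. With 4 to 6 and with 7 or more members, 31.6% and 43.0% were called lower there, against 27.5% and 26.7% in parental cells. Longer genes hold more members, and the median length grew from 23.5 kb with 1 member to 163 kb with 4 to 6 and 326.5 kb with 7 or more. With genes divided by length into 4 equal classes, those with a member were called higher more often in each. The shares were 29.3% of 817 against 26.4% of 1944 among the shortest and 43.8% against 32.9% among the longest, without intervals. Among the longest 30.2% with a member and 29.5% without were called lower, while in the other classes fewer were called lower with a member. Length still differed among the longest, with maxima of 3009 kb with a member and 522 kb without.

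**Figure D4:**
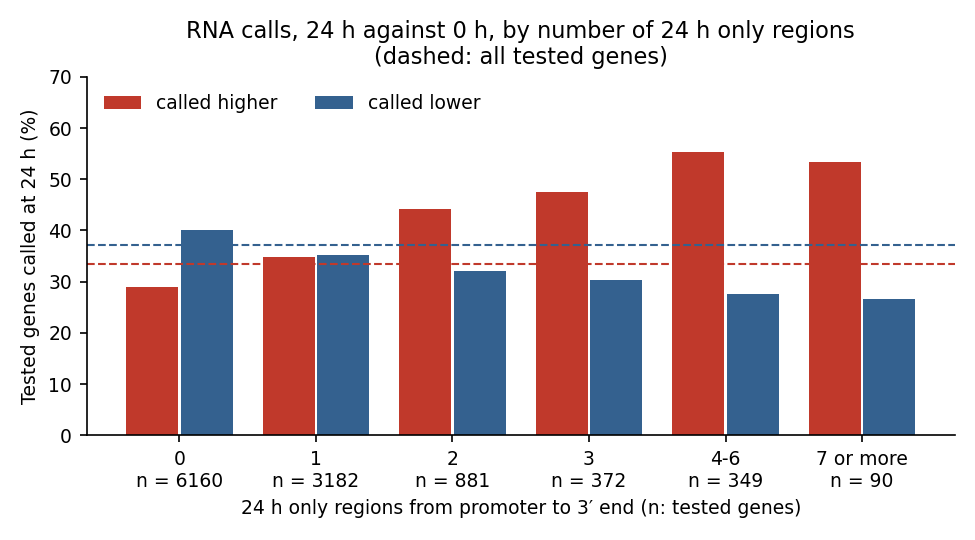
Share of tested genes called higher or lower at 24 h in parental cells (%, y axis) by the number of 24 h only regions they hold (x axis, with the number of tested genes); dashed lines give all tested genes. The share called higher goes from 29.0% with none to 55.3% with 4 to 6 regions and is 53.3% with 7 or more.

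The same order of shares was found at 8 h, when none of the regions had a peak. At that time 22.4% of all tested genes were called higher and 32.1% lower, against 24.7% (23.0 to 26.5) and 31.3% of genes with a promoter member and 29.2% (27.5 to 31.0) and 30.6% of those with a body member, and 18.9% (17.9 to 19.9) and 33.4% of those without a member. From 8 to 24 h, 27.7% of all tested genes were called higher and 24.0% lower, against 32.5% (30.6 to 34.4) and 20.9% of promoter member genes and 32.5% (30.7 to 34.3) and 23.7% of body member genes. These contrasts share libraries with that of 24 h against 0 h.

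Promoters that entered the list only at 24 h mostly belonged to genes already in use. Of 2778 genes with a promoter member and an FPKM value, 2222 (79.99%, 78.5 to 81.4) stood at 1 FPKM or more in untreated cells, with a median of 8.56, and 2279 (82.0%) at 24 h. For promoters accessible in untreated cells the share was 92.2% (91.5 to 92.8), and for promoters without a peak at any time 13.5% (12.8 to 14.1). Housekeeping genes held such regions too. Of 24 placed, 10 held a member and 8 had it at the promoter, while of all 21994 placed genes 6942 (31.6%) held a member and 2786 had it at the promoter. Genes tested for RNA held members more often. Of 11034 that were placed, 2321 had one at the promoter, 2553 only in the body or upstream and 6160 none. Tbp, the TATA-binding protein, had a promoter region with a score of 232.5 and 13.7 and 14.1 FPKM in untreated cells, 14.0 and 12.8 at 8 h and 14.3 and 13.9 at 24 h. Its libraries overlapped between times (log2 change 0.02 ± 0.06 SE, limma adjusted p = 0.747). Eef2, a translation elongation factor, had a region of score 86.6 across its start with 1253 and 1251 FPKM before and 1357 and 1350 after (0.11 ± 0.05, adjusted p = 0.066). Psmb4, Gusb, Gpi1, Chmp2a and Reep5 also had a promoter member. Of the 10 housekeeping genes, 3 were called higher and 4 lower, near the 33.4% and 37.1% of all tested genes. With quantile normalization Eef2 was called higher (0.29), and Psmb4 turned from -0.08 to 0.018 without a call.

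Many genes of the TGF-β response held 24 h only regions, mainly in introns. Of 24, 13 held at least one (54.2%, against 31.6% of all placed genes) and 3 at the promoter. Of the 12 tested, 9 were called higher and 1 lower, with a median log2 change of 1.02. The 11 tested without a member had 8 higher and 2 lower and a median of 1.715. No list was tested, and the counts and medians of this and the following lists stand beside 33.4% called higher and 37.1% lower and a median of -0.02 over all tested genes. The 31.6% covers all placed genes, with or without RNA. Of the 11034 placed genes tested for RNA, 6160 held no member, so tested genes held members more often. A share above 31.6% is therefore not by itself a trait of a list.

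Itga5, the fibronectin receptor chain α5, had a single member, an intronic region of score 370 that lay 7864 bp into the gene with both copies of the word shown above. Its RNA was 16.6 and 16.7 FPKM in untreated cells, 79.1 and 61.7 at 8 h and 108 and 101.3 at 24 h. All 24 h libraries lay above all others (log2 change 2.58 ± 0.10 SE against 0 h, limma adjusted p = 1.86e-06). Among placed genes called at 24 h, the 0 h and 24 h replicates did not overlap in 7812 of 7812. Separation of these libraries, here and in the genes below, thus adds nothing to a call. Itga5 already had an accessible promoter in untreated cells.

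Ltbp1, which anchors latent TGF-β in the matrix, held 10 members, all intronic, with scores of 73.2 to 280. It had the AP-1 word in the middle 300 bp of 3 of them. Its RNA went from 16.8 and 18.9 FPKM to 39.5 and 35.9 at 8 h and 56.7 and 53.9 at 24 h (1.58 ± 0.07, adjusted p = 2.57e-06). The groups did not overlap, and the rise continued after 8 h.

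Itgb6, the integrin chain that activates TGF-β, held 7 members with scores of 66.2 to 361, and its RNA was called higher at 8 h (0.89 ± 0.09, limma adjusted p = 0.000287) but not at 24 h. It was 4.87 and 5.09 FPKM in untreated cells, 11.2 and 9.05 at 8 h and 5.81 and 5.74 at 24 h. The 24 h level was back within 1 FPKM of the untreated level and was not called (0.18 ± 0.09, limma adjusted p = 0.117), although it was in a fit of the 0 h and 24 h libraries alone.

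Timp3, an inhibitor of matrix proteases, held 2 members of scores 71.7 and 194 without the word in their middle 300 bp. It rose from 12.4 and 12.4 FPKM to 42.2 and 36.4 at 8 h and 75.01 and 70.1 at 24 h (2.46 ± 0.07, adjusted p = 6.7e-07). Ldlrad4, an inhibitor of SMAD activation, held 8 members and went from 3.402 and 3.09 FPKM to 14.2 and 11.1 at 8 h and 18.6 and 17.6 at 24 h (2.17 ± 0.11, adjusted p = 3.75e-06). Smad7, the inhibitory SMAD, held 1 and went from 4.92 and 5.19 to 11.9 and 9.64 at 8 h and 11.3 and 10.5 at 24 h (0.97 ± 0.09, adjusted p = 8.05e-05). Both of these feedback inhibitors had most of their rise by 8 h. Skil, Ski, Tgfb1 and Hmga2 were also called higher, by 1.15, 1.07, 0.82 and 0.34. Tgfbi, a matrix protein, was below the filter at up to 0.322 FPKM. Smad6 fell by 0.34 on the log2 scale. Id3 fell to 22.6 and 24.6 FPKM at 8 h from 86.9 and 73.2 and stood at 71.4 and 75.4 at 24 h, with no call for 24 h against 0 h (-0.12 ± 0.08, adjusted p = 0.24).

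Mesenchymal and epithelial markers held members in 6 of 15 and 5 of 15 genes, beside 31.6% of all genes. Of the 6 mesenchymal genes, 4 were called higher and 2 lower (median 1.01), and of the 9 without a member 7 were called higher and 1 lower (median 1.04). Zeb2, a repressor of epithelial genes, had a member at its promoter and one of score 170 in an intron, and rose from 1.92 and 2.03 FPKM to 2.92 and 3.05 at 8 h and 7.15 and 6.59 at 24 h (1.404 ± 0.06, limma adjusted p = 2.99e-06). Snai2, another such repressor, had 1 at its promoter (score 223) and rose from 1.97 and 1.997 to 6.15 and 6.36 FPKM (1.28 ± 0.06, adjusted p = 2.74e-06). For both, the 8 h libraries lay much nearer to the untreated ones. Sparc and Cdh2 rose by 1.05 and 0.97. Twist2 and S100a4 had members of scores 226 and 189 and fell. Twist2 went from 9.62 and 8.86 FPKM to 4.04 and 3.89, and S100a4 from 2502 and 2233 to 945 and 999.

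Of the epithelial genes with a member 4 were tested, of which 1 was called higher and 3 lower (median -1.10), and of the 5 tested without a member 1 was called higher and 2 lower (median -0.12). Cdh1, the epithelial cadherin, held 3 intronic members of scores 56.8 to 86.5 and went from 113 and 119 FPKM to 86.3 and 92.9 at 8 h and 39.4 and 41.1 at 24 h (-1.504 ± 0.05, limma adjusted p = 9.92e-07). Krt19, a simple epithelial keratin, had 1 at its promoter (score 74.4) and went from 1005 and 982 to 55.5 and 69.1 FPKM (-3.98 ± 0.15, adjusted p = 1.57e-06). In both genes all 24 h libraries lay below all untreated ones. Ocln, a tight junction protein, held 3 members and fell by 0.70 on the log2 scale, and Krt18 held 1 and rose by 0.26. Grhl2, a grainyhead factor, held 2 although its RNA was at or below 0.0535 FPKM in all 6 libraries.

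**Figure D5:**
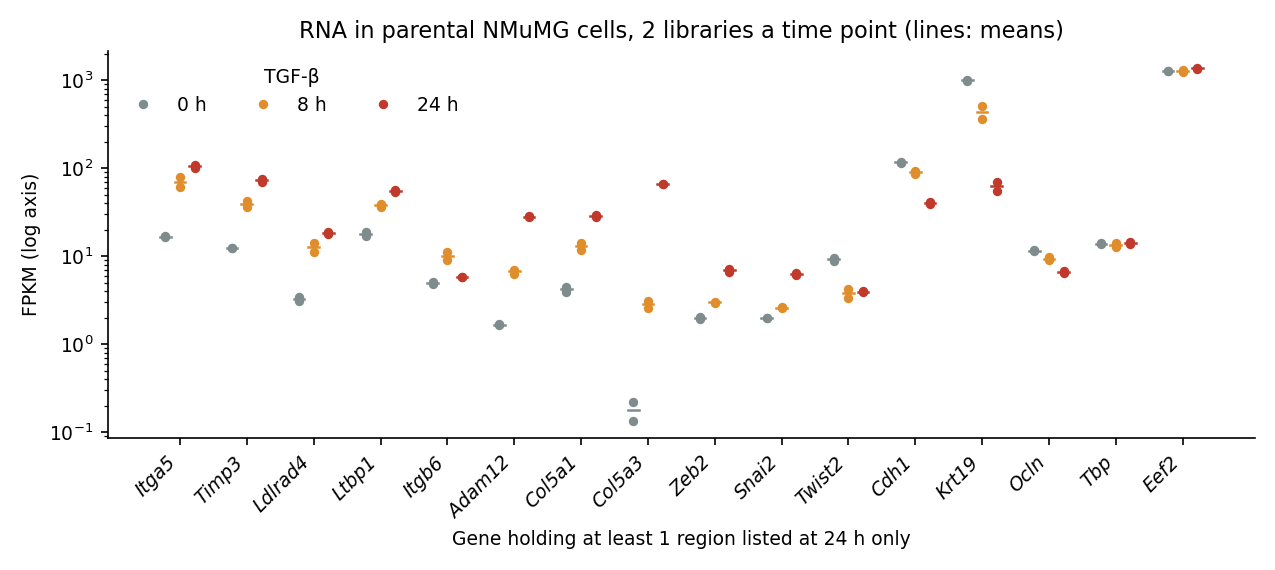
FPKM (log axis) of 16 genes that hold at least 1 region listed at 24 h only, in the 2 parental libraries of each time point (points) with their means (lines). Itga5, Ltbp1 and Adam12 rise, Cdh1 and Krt19 fall, and Tbp stays between 12.8 and 14.3.

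Actin and matrix genes were mostly called higher, with or without a member. Of 18 actin genes 10 held a member (55.6%, against 31.6% of all placed genes), and of the 9 tested 6 were called higher and 2 lower (median 0.83). Msn, a membrane and actin linker, held 3 and went from 209 and 208 FPKM to 678 and 647 (1.66 ± 0.04, limma adjusted p = 5.66e-07), while its epithelial relative Ezr also held 3 and went from 235 and 239 to 69.3 and 72.7 (-1.72 ± 0.12, adjusted p = 1.49e-05). Actn1, an actin crosslinker, held 3 and rose by 1.11, and its relative Actn4 had a strong one (score 329) with 201 and 208 FPKM before and 212 and 211 after, which was not called (0.05 ± 0.04, adjusted p = 0.382) but was with quantile normalization (0.146). Lima1, an actin-bundling protein, was the other that fell, from 51.3 and 54.7 to 13.9 and 13.8 FPKM. All 7 tested actin genes without a member were called higher (median 1.04).

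Of 20 matrix genes 9 held a member (beside 31.6% of all placed genes), and of the 8 tested 7 were called higher and none lower (median 0.77). The 10 tested without one had 9 higher and 1 lower (median 1.025). Adam12, a membrane metalloprotease, held 6 members with scores of 58.4 to 236, and all 6 had the AP-1 word in their middle 300 bp. Its RNA went from 1.63 and 1.70 FPKM to 7.05 and 6.34 at 8 h and 28.8 and 27.6 at 24 h (3.45 ± 0.06, limma adjusted p = 1.85e-07). Col5a1, a fibrillar collagen, had a promoter member of score 250.5 and 2 in introns and went from 3.91 and 4.47 to 28.2 and 29.1 FPKM (2.52 ± 0.08, adjusted p = 1.01e-06). In both genes the 3 time points did not overlap. Mmp14, the membrane collagenase, had a weak promoter member (54.3) and rose by 1.501. Col6a1, Col4a2 and Col1a2 were called higher by 0.50, 0.39 and 0.27.

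Of the AP-1 genes themselves 4 of 12 held a member (33.3%, near the 31.6% of all placed genes), and 10 of the 12 had an accessible promoter in untreated cells. Fosl1, a FOS family partner, had a weak member upstream (75.7) and went from 8.94 and 9.03 FPKM to 6.09 and 7.87 at 8 h and 3.17 and 3.77 at 24 h (-1.16 ± 0.11, limma adjusted p = 8.87e-05). Maff and Mafk, small MAF proteins, changed by -0.19 and 0.46. Batf3 was below 1 FPKM. Of the 3 tested AP-1 genes with a member 1 was called higher and 2 lower, beside 33.4% and 37.1% of all tested genes. Of the 6 without a member, 4 were called higher and 1 lower, with a median log2 change of 1.15. Genes that mark other lineages held members in 6 of 24 cases, beside the 31.6% of all placed genes. Of the 5 tested with a member 2 were called higher and 3 lower, and 3 without a member were tested. Most of this list was thus not tested for RNA, and tested genes held members more often. Sox2 and Cdx2 had theirs at the promoter, at 3.06 and 3.03 FPKM and at 7.70 and 7.45 FPKM in untreated cells.

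Among all genes with a promoter member, the largest rise was that of Col5a3, another fibrillar collagen, from 0.136 and 0.221 FPKM to 3.08 and 2.58 at 8 h and 65.7 and 65.2 at 24 h (5.82 ± 0.08, limma adjusted p = 1.28e-07). Its promoter member had a score of 68.2. Lce1g, of the cornified envelope family, Ass1, which makes argininosuccinate, Gm1045 and the receptor gene Lgr6 followed at 4.89, 4.78, 4.30 and 3.94. Lce1g belongs to a family of close copies whose reads may be shared. The largest falls were those of Krt19, Ugt2b34, Sult1c2, Vnn1 and Gm3776, from -3.98 to -3.26, and the named enzymes among them conjugate or hydrolyse small molecules. Ugt2b34 and Gm3776 also have close copies.

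Among genes with members only in the body, Ctsw, a cathepsin, rose most, from 0.811 and 0.751 FPKM to 34.5 and 26.9 at 8 h and 105 and 100.6 at 24 h (5.86 ± 0.10, limma adjusted p = 1.85e-07). Has2, which makes hyaluronan, Lmcd1, Inhba, the activin βA chain, and the cytokine Il11 followed at 3.68, 3.57, 3.35 and 3.32. Il11 held 2 members and went from 10.6 and 10.7 to 34.5 and 30.8 at 8 h and 125 and 106 at 24 h. The largest falls were those of Anxa10 (-4.74), Akr1c19 (-4.35), Gsta4 (-4.16), Aldh3a1 (-3.80) and Adap1 (-3.68). Akr1c19, Gsta4 and Aldh3a1 are enzymes that act on reactive carbonyls or electrophiles. Each of these 5 held 1 or 2 members with scores of at most 104, and weak regions were thus found in genes that fell as in genes that rose.

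The genes with most members had long models. Fgfr2 held 27 over a model of 3009 kb, but 1 transcript reaches far beyond the rest, and within transcript Fgfr2-001 (104 kb) there were 2. Arfip1 held 17, of which 1 lay within Arfip1-001. Dlg2, a synaptic scaffold of 1356 kb in transcript 001, held 14 there with scores up to 383, although its RNA was at or below 0.0101 FPKM in all 6 libraries. Macrod2 held 16 and went from 1.98 and 2.03 to 1.14 and 1.13 FPKM (-0.49 ± 0.06, limma adjusted p = 0.000381). 2010111I01Rik held 15 and rose by 0.32.

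The shares had the same order in the shRNA cells. In control shRNA cells 25.5% of 11450 tested genes were called higher and 45.1% lower at 24 h, and with quantile normalization, which moves the median log2 change from -0.13 to 0.00 (-0.0035), 3900 were higher and 3901 lower. Genes with a promoter member were called higher in 28.7% (26.9 to 30.6) and lower in 44.5%, genes with a body member in 32.6% (30.8 to 34.4) and 41.6%, and genes without in 21.7% (20.6 to 22.7) and 47.5%. In KD cells, with 28.6% of all genes called higher and 43.3% lower, the shares called higher were 31.9% (29.97 to 33.8), 36.3% (34.4 to 38.2) and 24.6% (23.6 to 25.7). Accessibility was not measured in these cells. With quantile normalization in KD cells 4126 genes were higher and 4103 lower.

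The difference between the 24 h responses of KD and control cells was called for few genes, 2.73% higher and 1.98% lower in KD cells. Among genes with a promoter member 3.25% (2.60 to 4.06) were called higher and 1.71% (1.26 to 2.33) lower, and with a body member 3.66% (2.99 to 4.46) and 2.11% (1.61 to 2.75). These counts depended on single libraries: 540 genes were called in all, 87 without control 24 h replicate 1, 120 without control 24 h replicate 2, 92 and 110 without KD 0 h replicate 1 or 2, 1417 without control 0 h replicate 2 and 2709 without KD 24 h replicate 1. Itga5 went from 9.79 and 9.84 to 122 and 117 FPKM in control cells and from 8.49 and 8.58 to 108 and 113 in KD cells, and the difference of the log2 responses was 0.07 ± 0.06 SE (limma adjusted p = 0.56). Cdh1 fell from 121 and 106 to 26.8 and 27.6 FPKM in control cells and from 127 and 121 to 46.6 and 60.1 in KD cells, a difference of 0.81 ± 0.15 SE (adjusted p = 0.0246) that was called in 3 of 8 fits with 1 library left out.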

How the data were processed

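ATAC-seq and lamin B1 ChIP-seq of NMuMG cells gave 1 peak list per time point, and RNA-seq gave 2 libraries per group. The authors called peaks with MACS and deposited positions on mm9 with a score per peak, without reads, so the depth behind each region is unknown. The authors deposited RNA values as FPKM, and the submitters' processing notes list Bowtie, TopHat and Cufflinks without versions. The FPKM tables have no header, and columns were assigned from the order in the tables' own names. The parental columns carry no replicate number. The methods state 2 biological replicates, and p-values measure the spread between them.

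Peaks were merged where they touched or overlapped (Python 3.11.15, pandas 2.3.3, pysam 0.24.0). Genes were placed with GENCODE M1 on the same build, where 21213 of 24892 symbols matched directly and 807 through a synonym in a RefSeq gene table used for names alone, and 21994 genes were placed. Words were searched on both strands in the middle 300 bp, and overlapping hits of different words were counted for each. Sequences were read from the mm9 genome. Genes that reached 1 FPKM in 2 or more columns of their table entered limma 3.58.1 (lmFit, contrasts.fit, eBayes with trend; R 4.3.3) on log2(FPKM + 1) with Benjamini-Hochberg adjustment, and each table was fitted once with all its columns. Where no value is given for a gene in a fit it did not pass this filter. The fit and the merging step were tested on simulated data with known answers.

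The members, lists and words were chosen with earlier results of these data known. Named genes are those of the lists that hold a member, the 5 largest rises and falls among called genes with promoter or body members whose replicates do not overlap and whose higher mean is at least 5 FPKM, and the 5 genes with most members. All 7812 placed genes called at 24 h met the condition on replicates. Named regions are the 10 highest scoring and the highest of each place. Cdk16, Trpm6, Phf17, Grk6 and Plod2 are the genes of such regions. Some genes of the lists are not reported here by name. The Hi-C data were not used here. The alternatives were higher scores, lists of equal length, a distance to earlier peaks, wider promoters, other motif and overlap windows, another pseudocount, no filter, quantile normalization, a 2-fold minimum, a replicate block and leaving out each library.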

Additional observations from a re-analysis of the deposited data

Results flagged for a closer look

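For 9 of the named genes that hold a 24 h only region, the 24 h response differed between KD and control cells by the limma test of the difference itself (Benjamini-Hochberg adjusted p under 0.05), on the log2 scale. Over all 11450 tested genes this difference was called higher in 2.73% and lower in 1.98%. Some of the named genes were picked for large changes at 24 h, so the count of 9 was not set against these shares. S100a4 fell less in KD cells (difference 0.92, adjusted p = 0.0096), as did Cdh1 (0.81, 0.0246), Itgb6 (0.62, 0.00625) and Anxa10 (1.56, 0.00193). S100a4 started from 921.6 and 1065 FPKM in control and 551.2 and 612.8 in KD cells. At 24 h it stood at 410.2 and 436.7 in control and 454.7 and 486.3 in KD cells. Itgb6 started from 11.78 and 11.2 FPKM in control and 12.11 and 12.89 in KD cells, and the Cdh1 levels are given above. Anxa10 started from 12.01 and 16.01 FPKM in control and 3.69 and 3.74 in KD cells and ended at 0.116 and 0.217 and at 0.0925 and 0.079. Gm3776 (-1.52, 0.00448) and Aldh3a1 (-1.36, 0.00484) fell more in KD cells, where both started higher. Gm3776 started from 3.02 and 3.726 FPKM in control and 10.48 and 8.449 in KD cells. At 24 h it stood at 0.1977 and 0.3176 in control and 0.0455 and 0.04891 in KD cells. Aldh3a1 started from 10.91 and 9.532 FPKM in control and 29.86 and 25.98 in KD cells. At 24 h it stood at 0.4272 and 0.2804 in control and 0.5113 and 0.2211 in KD cells. Lce1g rose less (-1.015, 0.0387), from 2.81 and 4.39 FPKM in control and 7.30 and 6.74 in KD cells. Whether the untreated levels account for the differences of S100a4, Anxa10, Gm3776, Aldh3a1 and Lce1g was not tested. Ass1 rose more (0.70, 0.0322). Chmp2a differed by 0.29 (0.04), from a response of -0.04 in control and 0.25 in KD cells. Itgb6, Gm3776, Anxa10 and Aldh3a1 were called in all 8 fits with 1 library left out, S100a4 in 6, Ass1 in 4 and Cdh1, Chmp2a and Lce1g in 3. With the replicate block Chmp2a (adjusted p = 0.0601) and Lce1g (0.0606) were no longer called. Accessibility was not measured in these cells, so no relation to the regions was tested.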

How the results depend on the processing

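The number of 24 h only regions was 11008 with 24 h scores of at least 100, 3423 at 200 and 1706 with lists of equal length. Under these 3 settings the promoter share was 18.3%, 25.04% and 26.5%, the intron share 36.1%, 32.2% and 31.5%, the AP-1 share over all regions 47.2%, 40.9% and 40.8%, and the share with a 24 h lamin B1 peak 7.004%, 10.1% and 10.7%. The promoter share was 18.5% with promoters that reach 2500 bp and 16.7% with the start of any transcript, and the AP-1 share 67.4% over whole regions. Mean GC stayed within 1 SD of the main value in each setting tried. Genes with a promoter member were called higher in 33.5% without a filter, 39.7% with quantile normalization, 35.2% with equal lists and 7.67% at 2-fold, and lower in 28.1% without a filter, 30.4% at a score of 200 (30.35), 30.8% with equal lists (30.75) and 6.46% at 2-fold. Genes with a body member were called higher in 31.8% without a filter, 43.1% with quantile normalization (43.05), 44.1% at a score of 100, 46.5% at 200, 46.9% with equal lists and 7.33% at 2-fold, and lower in 23.8% without a filter, 29.9% at 200 and 7.13% at 2-fold. The 2-fold minimum left 597 parental genes called higher and 736 lower. Calls over all tested parental genes moved with the setting as well. Without a filter 4272 of 17972 were higher and 4493 lower, and with quantile normalization 4079 of 11309 and 3895. With 1 library left out, fewer of all tested genes were called in both directions than in the main fit. Leaving out 1 parental library at a time gave 31.7% to 34.3% and 29.0% (28.95) to 32.1% for genes with a promoter member, and 35.1% to 38.4% and 28.4% to 30.3% for those with a body member. The count of genes whose 24 h response differed between KD and control cells ranged from 87 to 2709 when 1 library was left out, and the cause was not tested. Of 632 values of 79 named genes under alternatives, 616 kept direction and call. Id3 turned to 0.0037 without one untreated library (and to -0.241, called, without the other) and Psmb4 to 0.018 with quantile normalization, neither called there. Replicate numbers did not pair the shRNA samples throughout (correlations of deviations from -0.135 to 0.368). The highest, 0.368, was between control and KD cells at 24 h, and the next, 0.184, between KD cells at 0 and 24 h. With a replicate block 377 genes differed in response against 540. Calls at 24 h were then 2912 higher and 5130 lower in control cells and 3256 and 4935 in KD cells. No paired analysis was possible for the parental table because its columns carry no replicate number. One ATAC library per time point and unknown depth limit what absence from a list means.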

Other observations

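Col5a3, whose RNA rose most among genes with a promoter member, lay in one of the denser groups of 24 h only regions. This group was picked after its values were seen. It held 5 regions within 19.2 kb (chr9:20616839-20636024), of which 3 had the AP-1 word in their middle 300 bp and the strongest, with a score of 366, lay in an intron nearest to the start of Rdh8, a retinol dehydrogenase, 4522 bp away.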
